A study of Mus musculus with 8 samples.

Results

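The actin isoforms and the contractile cytoskeleton were described through 54 genes, taken by name and found by their Entrez identifiers among the 36528 genes counted in each library. They hold the 6 actins, 4 myosin heavy chains, myosin light chains and their kinase, transgelins, calponins, tropomyosins and other thin filament proteins, troponins, crosslinkers, LIM domain adaptors, and the transcription factor Srf with its coactivator Myocd. RNA with poly(A) tails was sequenced from primary mesothelial cells that came from the omentum of mice, the fatty fold of the abdominal lining. There were 4 BAP1 KO libraries and 4 WT libraries, with no treatment named for either. BAP1 is a deubiquitinase of the nucleus, with histone H2A among its substrates. The labels give neither the knockout allele, the driver of any deletion, the strain, the age nor the number of animals. They do not say either whether libraries of the same genotype represent different mice or cultures, so each p-value reflects the spread among these 8 libraries, and that spread may be technical.

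Each library held 67.1 to 84.9 M counted reads. Bap1 itself stood at 54, 53.1, 52.0 and 53.7 counts per M (CPM, adjusted by TMM factors) in BAP1 KO libraries, against 63.1, 62.6, 62.9 and 64.2 CPM in WT libraries. The BAP1 KO mean was 84.2% of the WT mean (log2 -0.25 ± 0.03), and this fall did not pass the test against 1.5-fold. Reads outside a deleted stretch would still be counted for the gene, but no allele is given and this was not tested. These counts alone therefore do not show how complete the loss of Bap1 was. The mesothelial marker Upk3b was present at 464 CPM in BAP1 KO and 462 CPM in WT, and the 13 mesothelial markers summed to 1390 to 1404 CPM in BAP1 KO and 1341 to 1370 CPM in WT. Of these 13 markers, 4 were higher, 6 were lower and 3 did not pass, with Msln among 3 that were lower beyond 1.5-fold, at 3.06 CPM in BAP1 KO and 6.95 CPM in WT. Markers of other cells were also abundant. The 8 macrophage markers summed to 14145 to 14642 CPM in BAP1 KO, against 11849 to 12136 CPM in WT, yet 4 of the 8 were higher and 4 lower, and the sum is mostly Lyz2, at 11027 CPM in BAP1 KO and 8388 CPM in WT. The 8 fibroblast markers summed to 15731 to 16319 CPM in BAP1 KO, against 19591 to 20959 CPM in WT, with all 8 lower. In bulk RNA of this kind, fewer cells of a type and less RNA per cell cannot be told apart.

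Actin filaments form the thin filaments along which myosin motors pull. Mammals carry separate genes for the skeletal, cardiac, vascular smooth muscle, enteric smooth muscle and cytoplasmic actins, whose proteins are nearly identical, so that a cell type is told more by which isoform it makes than by what the isoform does. Many genes of this system are targets of serum response factor (SRF), which binds the CArG box and is driven by the myocardin family of coactivators. Mesothelial cells in culture are known to take up smooth muscle genes as they become more like mesenchymal cells.

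The promoters of the genes that carry the contrasts are shown first, as the 250 bases before the RefSeq start site on GRCm38.p6, read 5′ to 3′ along the gene. Capitals mark each exact CArG box, whose ends are CC and GG around 6 bases of A or T. The skeletal actin Acta1 (chr8:123894776-123895025, minus strand) and the cardiac actin Actc1 (chr2:114052876-114053125, minus strand) each hold 1 box, and the vascular smooth muscle actin Acta2 (chr19:34255374-34255623, minus strand) holds no exact match. Srf (chr17:46556163-46556412, minus strand) holds 2 boxes. Pgm5 (chr19:24861843-24862092, minus strand) and Avil (chr10:127000459-127000708, plus strand), the members with the widest changes, hold no exact box. The exact search leaves out stretches that depart from the pattern at 1 base, such as ccctatatgg and ccttgtttgg in Acta2. The first of these also occurs in Actc1. A gene without an exact box may thus still hold a near match.
Acta1: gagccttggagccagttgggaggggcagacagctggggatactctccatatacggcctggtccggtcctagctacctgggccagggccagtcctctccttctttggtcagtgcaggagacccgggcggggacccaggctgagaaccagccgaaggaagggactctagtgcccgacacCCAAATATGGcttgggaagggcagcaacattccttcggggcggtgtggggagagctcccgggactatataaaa
Actc1: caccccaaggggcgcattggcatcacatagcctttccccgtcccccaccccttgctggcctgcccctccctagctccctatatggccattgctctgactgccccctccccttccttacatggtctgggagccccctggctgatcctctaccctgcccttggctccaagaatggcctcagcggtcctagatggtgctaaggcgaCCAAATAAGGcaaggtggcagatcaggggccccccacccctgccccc
Acta2: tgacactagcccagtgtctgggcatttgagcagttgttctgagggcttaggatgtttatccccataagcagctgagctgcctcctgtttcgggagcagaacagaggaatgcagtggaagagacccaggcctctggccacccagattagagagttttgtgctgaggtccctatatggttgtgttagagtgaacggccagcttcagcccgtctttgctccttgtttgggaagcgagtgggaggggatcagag
Srf: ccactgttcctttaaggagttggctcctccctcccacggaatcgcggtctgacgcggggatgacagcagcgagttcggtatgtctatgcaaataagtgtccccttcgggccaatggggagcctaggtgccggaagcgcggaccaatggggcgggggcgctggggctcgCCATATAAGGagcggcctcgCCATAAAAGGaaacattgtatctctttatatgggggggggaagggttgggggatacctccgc
Pgm5: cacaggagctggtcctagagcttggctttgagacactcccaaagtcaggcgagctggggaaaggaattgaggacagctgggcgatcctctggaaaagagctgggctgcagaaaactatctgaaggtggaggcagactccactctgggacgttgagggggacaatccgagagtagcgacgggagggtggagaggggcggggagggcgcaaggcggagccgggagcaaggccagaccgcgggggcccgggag
Avil: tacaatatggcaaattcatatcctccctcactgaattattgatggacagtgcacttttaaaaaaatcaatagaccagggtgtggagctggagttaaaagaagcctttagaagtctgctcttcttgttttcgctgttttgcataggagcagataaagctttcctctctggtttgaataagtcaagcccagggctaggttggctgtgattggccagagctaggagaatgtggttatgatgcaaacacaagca

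Of the 54 genes, 50 had enough reads to be tested. With edgeR's quasi-likelihood test and an adjusted p threshold of 0.05, 19 were higher in BAP1 KO, 18 were lower and 13 did not pass. The called share was 74%, against 61.1% of the 16929 genes tested in the whole data, where 29.0% were higher and 32.1% lower. Among the 2140 genes whose mean level exceeded 100 CPM, 78.0% were called. Most members are abundant, with 33 above 100 CPM in BAP1 KO and 34 in WT. The called share of the members lay between those of all genes and of abundant genes, and the part of abundance in it was not tested. The median log2 fold change (BAP1 KO minus WT) was 0.02 over the members and -0.005 over all genes, and the median absolute log2 fold change was 0.2 over the members and 0.18 over all genes. The 4 BAP1 KO values lay apart from the 4 WT values for 35 of the 50 members, against 53.8% of all genes.

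The large changes sat in few genes. A test against a change of 1.5-fold left Acta1 and Avil higher in BAP1 KO, against a background of 2.19% of all genes, and Pgm5, Myocd and Tnnt1 lower, against a background of 5.99%. These 5 members stand beside 8.18% of all genes that passed this test in either direction, and beside 2.76% of the genes above 100 CPM, where 0.654% were higher. The size of the log2 fold change was below 0.5 for 40 of the 50 members, 27 of which passed the test against no change. The other 10 all passed with groups that did not overlap, as did 16.1% of all genes. The contractile apparatus therefore held many small differences in both directions and 5 wide ones.

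**Figure D1:**
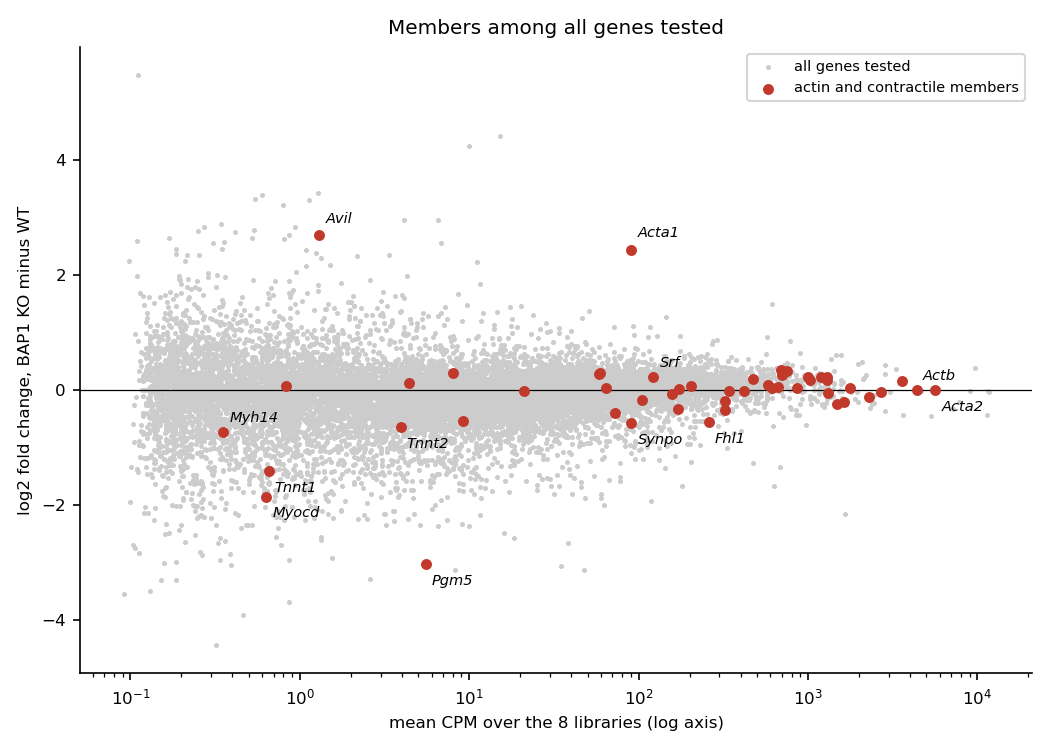
Log2 fold change (BAP1 KO minus WT) against mean level in CPM on a log axis, for all genes tested and, marked, for the members. Most members lie at high levels and near 0, while Acta1 at 2.44 and Avil at 2.69 stand high and Pgm5 at -3.02 and Myocd at -1.85 stand low.

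Among the actins, the skeletal isoform changed most. Acta1 (Entrez 11459; GRCm38 chr8:123891758-123894775) stood at 156, 149, 149 and 157 CPM in BAP1 KO libraries, against 26.4, 28.2, 28.7 and 29.2 CPM in WT libraries. Every BAP1 KO library was far above every WT library. The mean was 5.43-fold higher in BAP1 KO, a log2 fold change of 2.44 ± 0.03 (SE; edgeR adjusted p = 1.7e-32). These values rest on 10790 to 12161 reads in a BAP1 KO library and 1782 to 2397 reads in a WT library. Only 2.2% of the 50-base stretches of the Acta1 transcripts also occur in transcripts of another gene, so its uniquely aligning reads can be told from those of the other actins.

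The cardiac isoform Actc1 (Entrez 11464; chr2:114047282-114052875), the partner of Acta1 in striated muscle, was low, with 52 to 71 reads in a BAP1 KO library and 41 to 75 in a WT library. It stood at 0.895, 0.668, 0.859 and 0.979 CPM in BAP1 KO libraries, against 0.606, 0.882, 0.938 and 0.766 CPM in WT libraries. The groups overlapped, and the log2 fold change of 0.08 ± 0.17 did not pass (edgeR adjusted p = 0.7).

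The smooth muscle isoforms were abundant in both genotypes. Acta2 (Entrez 11475; chr19:34240336-34255585), the alpha smooth muscle actin used as a marker of myofibroblasts, stood at 5699, 5644, 5592 and 5702 CPM in BAP1 KO libraries, against 5480, 5655, 5669 and 5804 CPM in WT libraries. The groups overlapped throughout, with a log2 fold change of 0.00 ± 0.02 (edgeR adjusted p = 0.94). Actg2 (Entrez 11468; chr6:83512909-83536251), the enteric smooth muscle actin, stood at 771, 775, 757 and 760 CPM in BAP1 KO libraries, against 615, 638, 643 and 643 CPM in WT libraries. All 4 BAP1 KO values were above the WT values, and Actg2 was 1.21-fold higher (log2 0.27 ± 0.02, edgeR adjusted p = 4.5e-13).

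The cytoplasmic isoforms did not pass the test. Actb (Entrez 11461; chr5:142903115-142907976), the beta actin often used as a loading control, stood at 4355, 4353, 4344 and 4470 CPM in BAP1 KO libraries, against 4172, 4463, 4392 and 4478 CPM in WT libraries. Its groups overlapped, with a log2 fold change of 0.00 ± 0.02 (edgeR adjusted p = 0.96). Actg1 (Entrez 11465; chr11:120345687-120348495), the gamma cytoplasmic actin, stood at 4.69, 4.36, 4.64 and 4.81 CPM in BAP1 KO libraries, against 3.77, 4.54, 4.30 and 4.37 CPM in WT libraries. Its groups overlapped as well (log2 0.12 ± 0.07, edgeR adjusted p = 0.17). The low level of Actg1 cannot be read as its abundance, since reads with several matches were not counted. Of its 50-base stretches, 56.7% occur in transcripts of 22 other genes. How much of the low level comes from this was not tested. Tpm3, with 62.4% of such stretches, averaged 175 CPM in BAP1 KO and 173 CPM in WT.

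**Figure D2:**
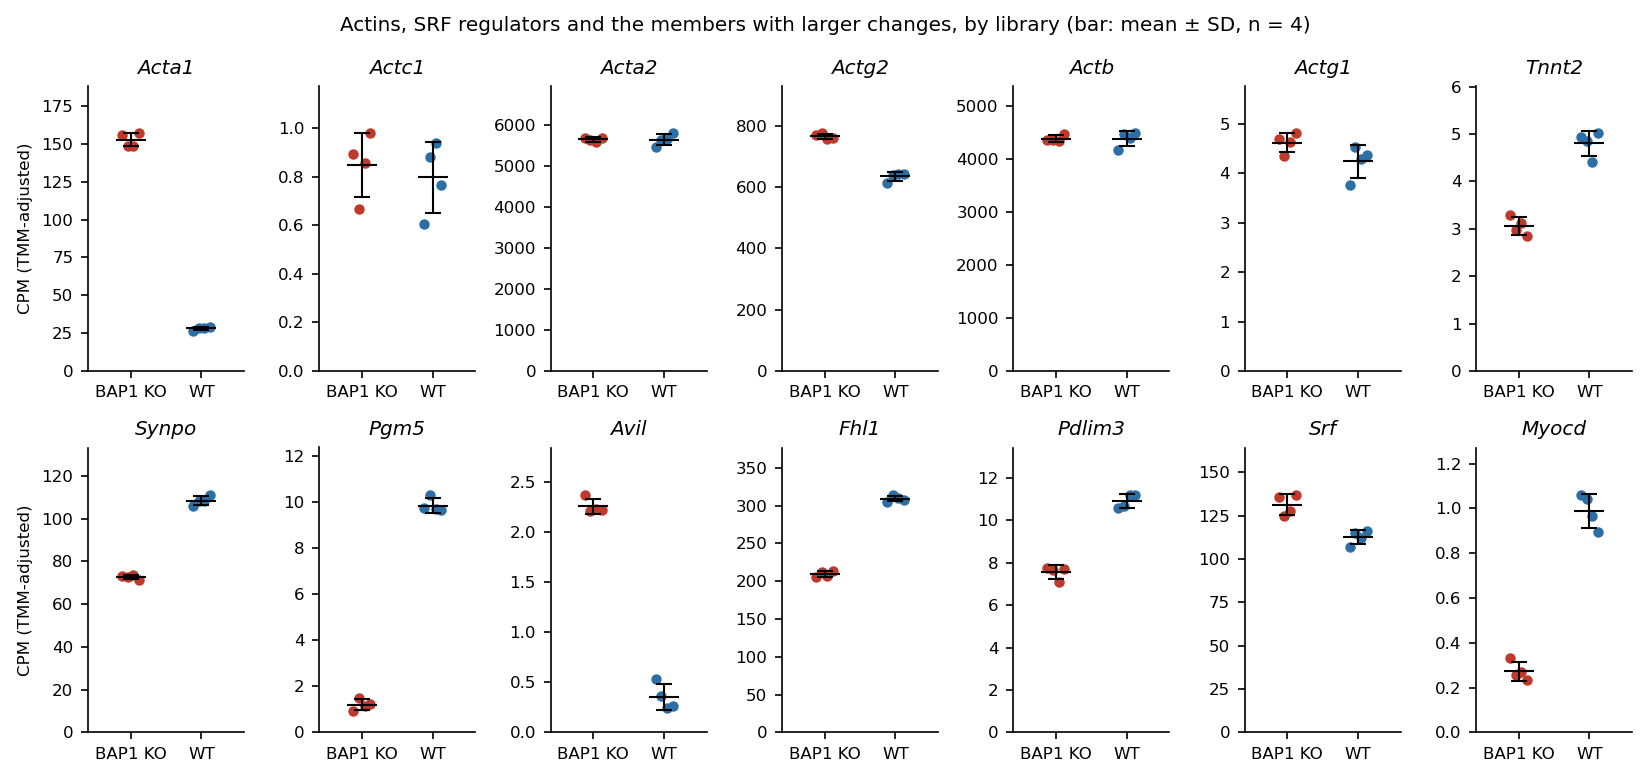
CPM in each library on linear axes from 0, BAP1 KO left of WT, for 14 members; points are single libraries and bars the mean ± SD (n = 4). Acta1 and Avil stand higher in all BAP1 KO libraries and Pgm5, Myocd, Synpo, Fhl1, Pdlim3 and Tnnt2 lower, while Acta2, Actb, Actc1 and Actg1 overlap.

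Levels of different isoforms were compared per length, through the authors' normalized RPKM (nRPKM). Acta2 averaged 1999 ± 21 nRPKM in BAP1 KO and 1979 ± 47 nRPKM in WT (SD, n = 4 each). Actg2 averaged 580 ± 7.1 nRPKM in BAP1 KO and 476 ± 10 nRPKM in WT. Acta1 averaged 96.8 ± 2.9 nRPKM in BAP1 KO and 17.7 ± 0.79 nRPKM in WT. In both genotypes the order was Actb, Acta2, Actg2, Acta1 and, far below, Actc1; Actg1 was given no place because of its uncounted reads.

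As a share of the summed nRPKM of the 6 actins, the skeletal isoform made up 1.94 ± 0.041% in BAP1 KO and 0.371 ± 0.0074% in WT. The 2 smooth muscle actins together held 51.7 ± 0.32% in BAP1 KO and 51.6 ± 0.36% in WT, and these shares overlapped. Within that sum, Actg2 held 11.4 to 11.8% in BAP1 KO against 9.89 to 10.1% in WT, and Acta2 held 40.1 ± 0.17% in BAP1 KO against 41.6 ± 0.32% in WT, neither overlapping. Actb held 46.3 ± 0.31% in BAP1 KO and 48.0 ± 0.35% in WT. The sum itself was larger in BAP1 KO, at 4932 to 5040 nRPKM, than in WT, at 4582 to 4881 nRPKM. The lower shares of Acta2 and Actb thus stand beside levels that did not pass, each with a log2 fold change of 0.00. Set against Acta2, Acta1 reached 4.73 to 4.95% of its nRPKM in BAP1 KO libraries and 0.863 to 0.909% in WT libraries. The wide fold change of Acta1 was thus a change in a minor isoform. These shares are descriptions without a test, and the counts missing from Actg1 are missing from the sum.

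**Figure D3:**
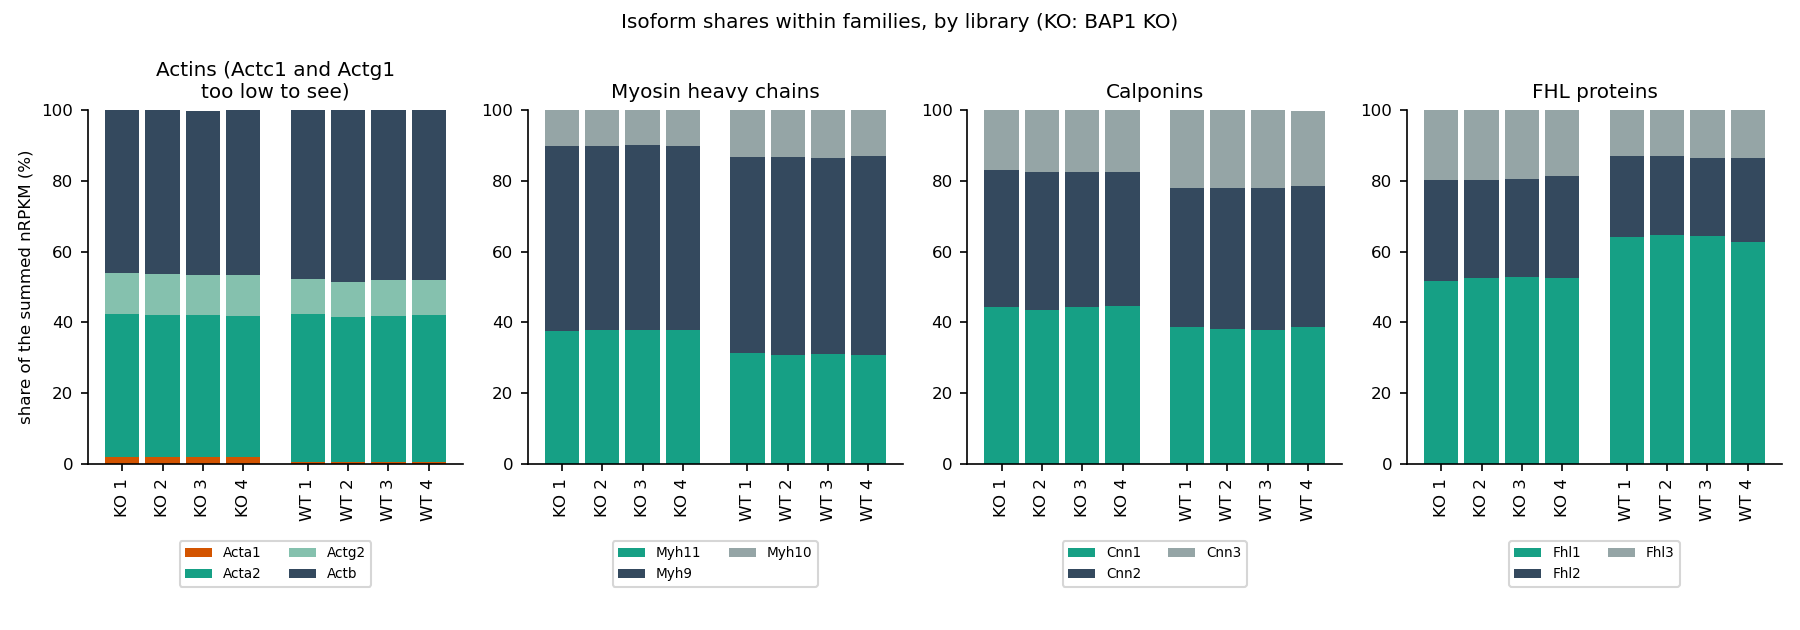
Share of the summed nRPKM held by each isoform of a family, in percent, as 1 stacked bar per library with the 4 BAP1 KO libraries left of the 4 WT libraries, for actins, myosin heavy chains, calponins and FHL proteins. The smooth muscle isoforms Myh11 and Cnn1 hold larger shares in BAP1 KO, at 37.7 and 44.2%, than in WT, at 31.0 and 38.4%.

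Markers of striated muscle outside the members were low, and their sums overlapped between the genotypes. The 10 skeletal muscle markers summed to 15.5 to 16.8 CPM in BAP1 KO and 15.8 to 17.6 CPM in WT. Myog was at 0 in all libraries, and 3 of the 10 had at most 3 counts in any library. Of the 5 skeletal markers that could be tested, Actn3, the most abundant, was higher, Myh1 and Tnni2 were lower and 2 did not pass. The 6 cardiac markers summed to 1.23 to 1.68 CPM in BAP1 KO and 1.14 to 1.33 CPM in WT, and of the 2 that could be tested Nkx2-5 was higher (log2 1.02 ± 0.19) and Mybpc3 did not pass. The 7 smooth muscle or pericyte markers outside the members summed to 540 to 557 CPM in BAP1 KO, below the 566 to 591 CPM in WT, with 5 lower and 1 higher. Of these, 2 were lower beyond 1.5-fold, and the lowest log2 fold change was -1.99. Macrophage, fibroblast and pericyte markers thus moved between the genotypes, and their part in the changes of the contractile genes was not tested.

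The myosin heavy chains of class II showed the smooth muscle form higher and the non-muscle forms lower. Myh11, the smooth muscle heavy chain, averaged 839 ± 12 CPM in BAP1 KO and 667 ± 17 CPM in WT (log2 0.33 ± 0.02, edgeR adjusted p = 1e-14). Myh10, which encodes non-muscle myosin IIB, averaged 285 ± 3.1 CPM in BAP1 KO and 362 ± 6.2 CPM in WT, lower by a log2 fold change of -0.34 ± 0.02. Myh9, non-muscle myosin IIA and the most abundant of the group, averaged 1287 CPM in BAP1 KO and 1333 CPM in WT. Its log2 fold change of -0.05 ± 0.02 passed narrowly (edgeR adjusted p = 0.047) and no longer passed when any one of BAP1 KO replicates 2 and 4 or WT replicates 2 and 4 was left out (adjusted p of 0.13, 0.16, 0.14 and 0.16). Myh14, non-muscle myosin IIC, was low at 0.262 CPM in BAP1 KO and 0.446 CPM in WT (log2 -0.73 ± 0.25, edgeR adjusted p = 0.014), and did not pass without BAP1 KO replicate 1 (log2 -0.57, adjusted p = 0.063). Of the summed nRPKM of Myh9, Myh10 and Myh11, Myh11 held 37.7 ± 0.071% in BAP1 KO and 31.0 ± 0.35% in WT.

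Among the light chains and the kinase that phosphorylates them, 2 were higher, 1 was lower and 2 did not pass. This called share of 60% was near the 61.1% of all genes. Mylk, the myosin light chain kinase that switches on smooth muscle contraction, averaged 1074 ± 11 CPM in BAP1 KO and 916 ± 12 CPM in WT (log2 0.23 ± 0.02, edgeR adjusted p = 4.9e-12). The regulatory light chain Myl12b was higher (log2 0.30 ± 0.03), while its neighbour Myl12a was at 341 CPM in BAP1 KO and 344 CPM in WT (log2 -0.01 ± 0.02, adjusted p = 0.58). These genes share sequence: 192 of the 2094 50-base stretches of Myl12b occur in Myl12a, and 551 of the 1888 of Myl12a occur in Myl12b, so their split is uncertain. The essential light chain Myl6 was lower (log2 -0.17 ± 0.03). Myl9, the regulatory light chain of smooth muscle, averaged 875 CPM in BAP1 KO and 848 CPM in WT, a log2 fold change of 0.04 ± 0.02 (edgeR adjusted p = 0.077). It passed when WT replicate 1 or WT replicate 4 was left out, with adjusted p of 0.034 and 0.013.

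The calponins, which bind actin and hold back myosin's ATPase, parted by isoform. Cnn1, the calponin of differentiated smooth muscle, averaged 778 ± 14 CPM in BAP1 KO and 612 ± 15 CPM in WT (log2 0.35 ± 0.02, edgeR adjusted p = 3.8e-15). Cnn2, a calponin of many non-muscle cells, was also higher, by a log2 fold change of 0.09 ± 0.02. Cnn3, the acidic calponin, was lower, at 303 ± 2.6 CPM in BAP1 KO and 346 ± 1.7 CPM in WT (log2 -0.19 ± 0.02), with 30.3% of its 50-base stretches also found in other genes. Cnn1 made up 44.2 ± 0.47% of the summed calponin nRPKM in BAP1 KO and 38.4 ± 0.53% in WT, without overlap. Tagln, the transgelin SM22 alpha and an early smooth muscle marker, averaged 2669 CPM in BAP1 KO and 2738 CPM in WT and did not pass (log2 -0.04 ± 0.02, edgeR adjusted p = 0.11). Of its 1988 exonic bases, 1241 overlap a gene on the other strand, and 48.3% of its 50-base stretches occur in other genes, so its count is uncertain. Tagln2, its wider expressed relative, did not pass either (log2 0.03 ± 0.02, adjusted p = 0.19), and Tagln3, a neuronal relative, had 4 to 7 counts in BAP1 KO and 2 to 6 in WT and was not tested.

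The tropomyosins, coiled coils that lie along the actin filament, shifted against each other by small amounts. Tpm1, the most abundant, averaged 2211 ± 14 CPM in BAP1 KO and 2402 ± 30 CPM in WT (log2 -0.12 ± 0.02, edgeR adjusted p = 1e-06). Tpm2 was higher (log2 0.17 ± 0.02), as was Tpm4 (log2 0.06 ± 0.02, adjusted p = 0.015). Tpm3 did not pass, and 62.4% of its 50-base stretches also occur in Tpm3-rs7. By share of nRPKM, Tpm1 held 41.2% of the tropomyosins in BAP1 KO and 45.0% in WT, and Tpm2 held 27.6% in BAP1 KO and 24.8% in WT. Of the proteins that act on these filaments, smoothelin (Smtn), found in contractile smooth muscle, was lower (log2 -0.33 ± 0.03, edgeR adjusted p = 1.7e-12), although its exons overlap those of another gene by 714 bases. Caldesmon (Cald1), which binds actin and tropomyosin, did not pass (log2 0.04 ± 0.03, adjusted p = 0.22), and passed without WT replicate 1 (adjusted p = 0.011). Leiomodin 1 (Lmod1), a nucleator of smooth muscle filaments, was lower by a log2 fold change of -0.06 ± 0.02 (edgeR adjusted p = 0.034), and did not pass when BAP1 KO replicate 2, 3 or 4 or WT replicate 1 was left out (adjusted p of 0.062, 0.081, 0.082 and 0.16).

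Troponin T anchors the troponin complex, which makes striated muscle sensitive to calcium, and both troponin T members with enough reads to test were low and fell. Tnnt2, the cardiac troponin T, stood at 3.29, 2.98, 3.13 and 2.84 CPM in BAP1 KO libraries, against 4.94, 4.85, 4.41 and 5.01 CPM in WT libraries. Every BAP1 KO value was below every WT value (log2 -0.65 ± 0.08, edgeR adjusted p = 1.5e-08). Tnnt1, the slow skeletal troponin T, stood at 0.563, 0.347, 0.245 and 0.290 CPM in BAP1 KO libraries, against 0.665, 0.941, 1.02 and 1.16 CPM in WT libraries. The groups did not overlap, and the fall exceeded 1.5-fold (log2 -1.41 ± 0.22, adjusted p = 0.0012 against 1.5-fold). The fast skeletal Tnnt3 had 8 to 15 counts in BAP1 KO and 3 to 10 in WT, and the myosin binding protein Mybph had 1 to 4 counts in BAP1 KO and 2 to 7 in WT, so neither was tested. The skeletal muscle members thus went both ways, with Acta1 higher and Tnnt1 lower.

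All 10 tested members among the crosslinkers and anchors passed, 6 higher and 4 lower, where 61.1% of all genes and 78.0% of genes above 100 CPM did. Pgm5 (Entrez 226041; chr19:24678261-24861842), a relative of phosphoglucomutase that sits at the adherens junctions of muscle, also called aciculin, had the widest fall of all members. It stood at 0.939, 1.5, 1.15 and 1.23 CPM in BAP1 KO libraries, against 9.72, 10.3, 9.68 and 9.66 CPM in WT libraries. The groups lay far apart, 8.12-fold lower in BAP1 KO (log2 -3.02 ± 0.09, edgeR adjusted p = 2.7e-23), from 65 to 117 reads in a BAP1 KO library and 657 to 877 in a WT library.

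Avil (Entrez 11567; chr10:127000065-127020994) encodes advillin, a relative of gelsolin and villin that binds actin and is known from sensory neurons. It stood at 2.37, 2.21, 2.23 and 2.22 CPM in BAP1 KO libraries, against 0.532, 0.365, 0.248 and 0.260 CPM in WT libraries. The groups lay far apart (6.46-fold higher in BAP1 KO; log2 2.69 ± 0.16, edgeR adjusted p = 3.4e-15), from 161 to 182 reads in a BAP1 KO library and 18 to 36 in a WT library. Of its 3398 exonic bases, 165 overlap the gene Tsfm on the other strand. Its relative Vil1, the villin of intestinal brush borders, had 1 to 10 counts in BAP1 KO and 2 to 24 in WT and was not tested.

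Synpo, synaptopodin, which bundles actin with alpha-actinin in podocytes and dendritic spines, stood at 73.2, 72.7, 73.7 and 71.3 CPM in BAP1 KO libraries, against 106, 108, 108 and 111 CPM in WT libraries. The groups did not overlap (log2 -0.58 ± 0.03, edgeR adjusted p = 1.1e-18), whereas its muscle relative Synpo2 was higher (log2 0.29 ± 0.06). The filamins Flna and Flnc, which crosslink filaments into networks, were both higher, at log2 0.15 ± 0.02 and 0.19 ± 0.02. The alpha-actinins Actn1 and Actn4, which crosslink stress fibres, were also both higher, at log2 0.17 ± 0.02 and 0.22 ± 0.02. Vinculin (Vcl), which ties actin to adhesions, was lower (log2 -0.24 ± 0.02), although 39.2% of its 50-base stretches occur in other transcripts and its exons overlap those of Ap3m1. Desmin (Des), the intermediate filament of muscle, was lower (log2 -0.20 ± 0.02), at 1509 CPM in BAP1 KO and 1734 CPM in WT.

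**Figure D4:**
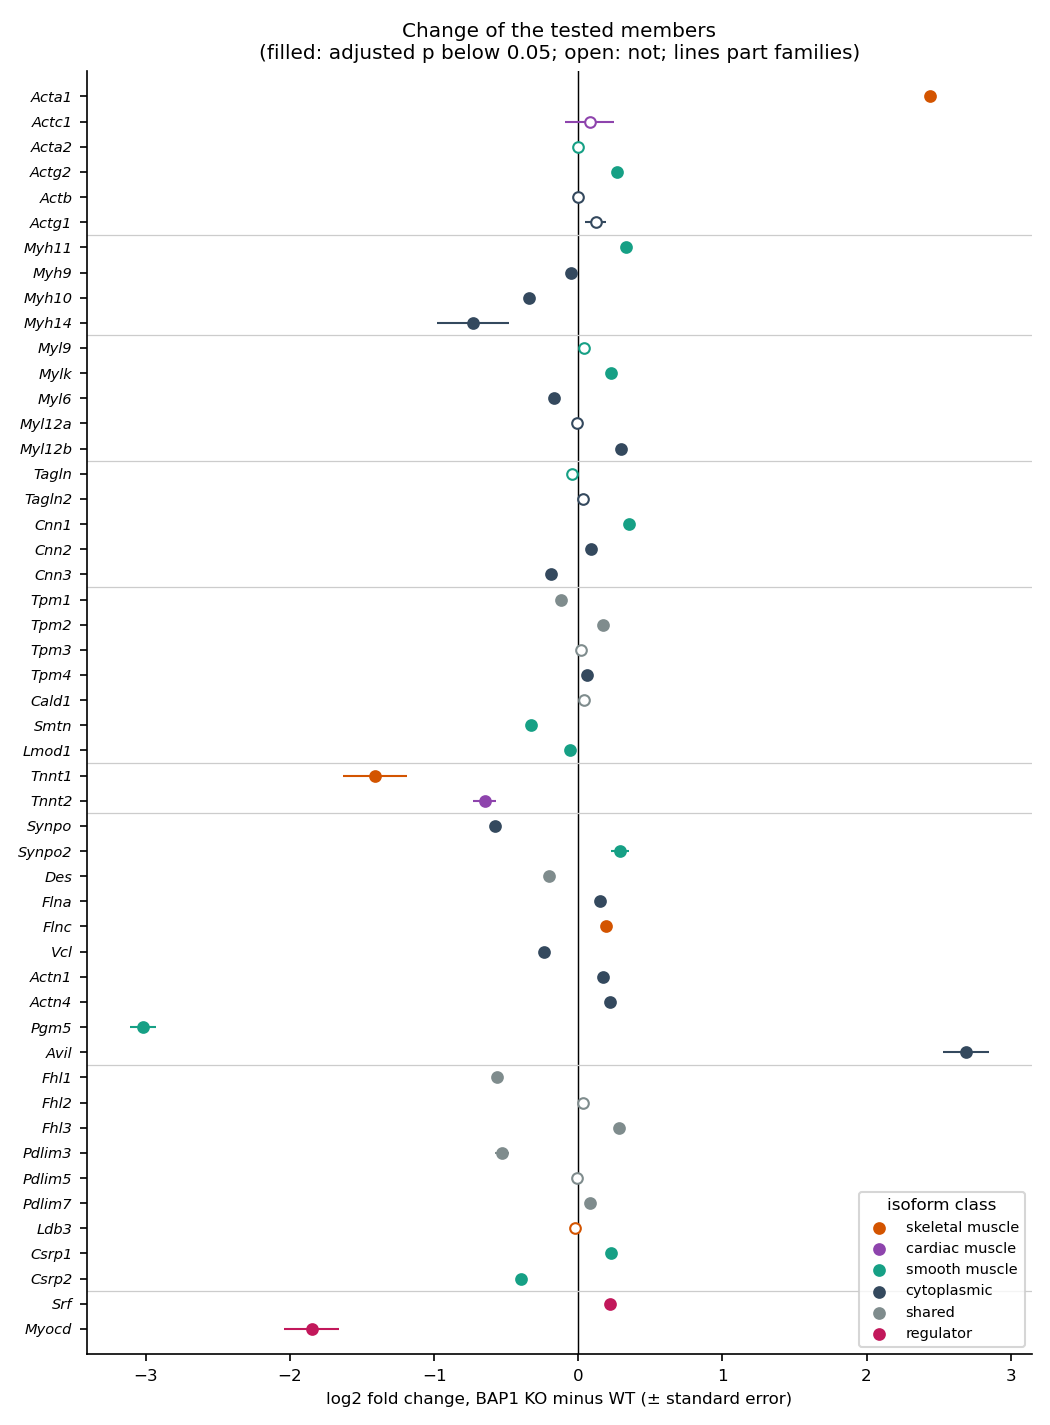
Log2 fold change (BAP1 KO minus WT) of the 50 tested members by family, with bars for the standard error, filled points for an adjusted p below 0.05 and colours for the muscle class. Within most families members lie on both sides of 0, and only Acta1, Avil, Pgm5, Myocd and Tnnt1 passed the test against 1.5-fold.

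The LIM domain adaptors, which link filaments, Z-discs and the nucleus, were split into 3 higher, 3 lower and 3 that did not pass. Their called share of 66.7% was near the 61.1% of all genes. Fhl1, an adaptor built of LIM domains and abundant in striated muscle, stood at 205, 212, 207 and 213 CPM in BAP1 KO libraries, against 305, 314, 310 and 308 CPM in WT libraries. Its groups lay apart (log2 -0.56 ± 0.02, edgeR adjusted p = 2.8e-20). Its relative Fhl3 was higher (log2 0.28 ± 0.03) and Fhl2 did not pass (log2 0.03 ± 0.03, adjusted p = 0.39), so that Fhl1 held 52.4% of the nRPKM of the trio in BAP1 KO and 63.9% in WT. Pdlim3, which binds alpha-actinin at Z-discs, stood at 7.75, 7.68, 7.09 and 7.72 CPM in BAP1 KO libraries, against 10.6, 10.7, 11.2 and 11.2 CPM in WT libraries, without overlap (log2 -0.53 ± 0.05, adjusted p = 2.7e-10).

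Of the other PDZ and LIM proteins, Pdlim7 was higher by a log2 fold change of 0.08 ± 0.02, while Pdlim5 and Ldb3 did not pass. The cysteine-rich proteins, which serve as SRF cofactors in smooth muscle, moved in opposite directions. Csrp1 averaged 1389 CPM in BAP1 KO and 1185 CPM in WT (log2 0.23 ± 0.02), and Csrp2 averaged 62.4 ± 2.6 CPM in BAP1 KO and 82.5 ± 2.0 CPM in WT (log2 -0.40 ± 0.03). Csrp2 held 8.21% of the nRPKM of the pair in BAP1 KO and 12.2% in WT.

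By muscle class, neither the smooth muscle nor the cytoplasmic members moved as a block. Of 13 smooth muscle members, 6 were higher (Actg2, Myh11, Mylk, Cnn1, Synpo2 and Csrp1) and 4 were lower (Pgm5, Csrp2, Smtn and Lmod1). The other 3 were not called, and the median log2 fold change was 0.04, in a range from -3.02 (Pgm5) to 0.35 (Cnn1). Of 18 tested cytoplasmic or non-muscle members, 7 were higher, 7 lower and 4 were not called (median log2 fold change 0.02). Of 4 tested skeletal muscle members, 2 were higher and 1 lower, and of 2 cardiac members 1 was lower. The classes follow the textbook site of highest expression, and many members are made in several of these tissues. The called share was 76.9% in the smooth muscle class and 77.8% in the cytoplasmic class, near the 78.0% of genes above 100 CPM.

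Srf and its coactivator differed in direction. Srf (Entrez 20807; chr17:46546838-46558267) stood at 136, 125, 128 and 137 CPM in BAP1 KO libraries, against 107, 115, 112 and 116 CPM in WT libraries. All 4 BAP1 KO values were above the WT values (log2 0.22 ± 0.03, edgeR adjusted p = 1.1e-07). Myocd (Entrez 214384; chr11:65173608-65269989), myocardin, the coactivator restricted to smooth and cardiac muscle, stood at 0.332, 0.257, 0.270 and 0.234 CPM in BAP1 KO libraries, against 1.06, 1.04, 0.965 and 0.895 CPM in WT libraries. The groups lay apart (log2 -1.85 ± 0.19, edgeR adjusted p = 6.4e-10), from 17 to 23 reads in a BAP1 KO library and 69 to 88 in a WT library. The wider expressed coactivator Mrtfa was higher (log2 0.34 ± 0.03), and Mrtfb averaged 44.6 CPM in BAP1 KO and 46.7 CPM in WT without passing (edgeR adjusted p = 0.076).

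CArG boxes were frequent among the members but were shared by those that rose, those that fell and those that did not pass. RefSeq promoters, from 250 bases before to 50 after the start, were held for 46 members, some with several starts. The box, searched on both strands, occurred in 14 of the 56 member promoters, from 12 genes, and in 1.63% of all 32851 promoters. Many members are textbook SRF targets, so this frequency describes the choice of members. Of the 11 tested genes with a box, 3 were higher (Acta1, Cnn2 and Srf), 3 lower (Myl6, Vcl and Fhl1) and 5 did not pass, near the 29.0% of all genes that were higher and 32.1% that were lower. Of the 32 tested genes with a promoter but no exact box in it, Acta2 among them, 14 were higher, 12 lower and 6 did not pass. The boxes of 2 members that were higher, 2 that were lower and 2 that did not pass are given as examples, with their first and last base counted back from the start site.
Acta1, 73 to 64 bases before, higher: CCAAATATGG
Cnn2, 56 to 47 bases before, higher: CCTTATAAGG
Myl6, 50 to 41 bases before, lower: CCTTATATGG
Fhl1, 102 to 93 bases before, lower: CCTAAAATGG
Actc1, 47 to 38 bases before, not passed: CCAAATAAGG
Actg1, 90 to 81 bases before, not passed: CCATATATGG
The letters CATTCC, the core bound by TEAD factors, occurred in 18 of the 56 member promoters, from 17 genes, and in 14.66% of all 32851 promoters. Of the 16 of these genes that were tested, 5 were higher, 7 lower and 4 did not pass, beside 29.0% of all genes higher and 32.1% lower. A match is a description of these letters and not of binding.

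The rest of the pathway was described through lists of genes that are no members. Of 12 tested SRF coactivators and repressors, 6 were higher and 4 lower (median log2 fold change 0.04), among them Foxo4 (log2 0.45 ± 0.03) and the repressor Elk3 (log2 -0.37 ± 0.03). Of 38 genes of actin assembly and severing, 14 were higher and 12 lower, and the formins Fmnl2 and Fmnl3 were lower beyond 1.5-fold (log2 -0.97 ± 0.04 and -0.66 ± 0.03). Of 26 focal adhesion and stress fibre genes, 15 were higher and 8 lower, with Tln2, talin 2, higher (log2 0.64 ± 0.03) and Filip1l lower (log2 -0.60 ± 0.03). The called shares of these lists, in order, were 83.3, 68.4 and 88.5%, against 61.1% of all genes and 78.0% of genes above 100 CPM.

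Lists of muscle genes outside the members sorted by tissue as follows. They share genes with the marker lists above, among them Myog, Tnnc2, Nkx2-5 and Itga8, and are not a separate observation. Of 24 skeletal sarcomere genes and regulators, 12 could be tested; 3 were higher, 4 lower and 5 were not called (median log2 fold change -0.18). Tnni1, the slow skeletal troponin I and partner of Tnnt1, was lower beyond 1.5-fold (log2 -1.88 ± 0.27). Of the troponin C genes, Tnnc1, the slow skeletal and cardiac form, was higher (log2 0.56 ± 0.17, edgeR adjusted p = 0.0051) although its groups overlapped, and Tnnc2, the fast form, did not pass (log2 0.01 ± 0.31, adjusted p = 0.99). The regulators Myog, Myf5 and Myf6 had no counts. Of 9 tested cardiac genes, 6 were higher and 1 lower, with a median of 0.34, and 2 were higher beyond 1.5-fold. These were Nkx2-5, a cardiac homeobox factor, at 0.782 CPM in BAP1 KO and 0.385 CPM in WT (log2 1.02 ± 0.19), and Ankrd1, a stress-induced muscle repeat protein (log2 0.91 ± 0.04). Of 13 smooth muscle and pericyte genes outside the members, 4 were higher and 7 lower, with a median of -0.27 and a lowest log2 fold change of -1.99. Itga8 (log2 -0.73 ± 0.05) and Mustn1 (log2 -0.80 ± 0.05) were among the 3 lower beyond 1.5-fold. The background for each of these counts is the share of all genes given above, 29.0% higher and 32.1% lower.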

How the data were processed

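Polyadenylated RNA of 4 BAP1 KO and 4 WT libraries, grouped by the labelled genotype, was read as single 50-base reads from a kit that does not mark strand, per the labels' protocols. GSNAP and GRCm38 were used, per the submitters' processing notes. The deposited counts are uniquely aligning reads per gene, and the deposited nRPKM is RPKM adjusted by a size factor, both per the file headers. Neither the annotation nor the strand setting of the counting is given in the sources used here. Depth per library was 67.1 to 84.9 M counts, above the 30 M reads that the labels' protocol states, and the reason is not known.

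All 16929 genes that passed filterByExpr were tested with edgeR 4.0.16 (R 4.3.3; TMM factors, robust quasi-likelihood F test, Benjamini-Hochberg adjustment, threshold 0.05), and against a 1.5-fold change with glmTreat. Standard errors are the log2 fold change divided by the root of F. The procedure was tested on simulated data. nRPKM served for shares within families only. Alternatives were other scalings (RLE, upper quartile, library totals), other filters, DESeq2 1.42.0, limma-voom (limma 3.58.1) and leaving out each library. Symbols came from the RefSeq table of GRCm38.p6, as did promoters, and sequence overlap from GENCODE vM21.

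Every value by library is given for the actins, Srf, Myocd, and members that passed, did not overlap, and reached a log2 change of 0.5 and 1 CPM in a genotype; values of Tnnt1, under 1 CPM in both genotypes, were added after they were seen. Up to 4 genes of each pathway list and 3 of each marker list were named, and Mrtfb, Myf5, Myf6, Tnnc1, Tnnc2, Myog, Mybpc3 and markers that passed a test were added after their values were seen. The result of 1 pathway list is not reported here. The members, lists and classes were chosen with earlier results of these data known.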

Additional observations from a re-analysis of the deposited data

Results flagged for a closer look

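In 6 of 110 groups of 4 libraries, 1 library stood apart from the other 3 by Dixon's criterion, where chance gives about 5%. Actb was at 4470 CPM in BAP1 KO replicate 4, against 4344 to 4355 CPM in the other BAP1 KO libraries. Tpm1 was at 2189 CPM in BAP1 KO replicate 3, below the 2216 to 2221 CPM of the others. Tpm3 was at 162 CPM in WT replicate 1, below the 176 to 177 CPM of the other WT libraries. Pgm5 was at 10.3 CPM in WT replicate 2, above the others at 9.66 to 9.72 CPM. Avil was at 2.37 CPM in BAP1 KO replicate 1, above the others at 2.21 to 2.23 CPM. Pdlim3 was at 7.09 CPM in BAP1 KO replicate 3, below the others at 7.68 to 7.75 CPM. None of these 6 genes changed its call when any 1 library was left out.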

How the results depend on the processing

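Over 15 alternatives, 43 of the 50 tested members kept their call wherever they could be tested and none reversed. The counts ranged from 18 to 21 members higher and 15 to 19 lower. Requiring CPM above 1 in at least 4 libraries left 1 member lower beyond 1.5-fold in place of 3, because that filter removed Tnnt1 and Myocd from the test; it also removed Actc1 and Myh14. With each library left out in turn, 19 to 21 members were higher and 16 to 18 lower. The 7 members with a changed call were Myh9, Lmod1, Myh14, Tpm4, Myl9, Tagln and Cald1. With library totals alone Tpm4 no longer passed (adjusted p = 0.074) and Tagln passed as lower (adjusted p = 0.022). With DESeq2 and with RLE factors Myh9 and Lmod1 did not pass, and with RLE factors Myl9 did. The share of the smooth muscle actins differed between BAP1 KO and WT by 0.144 percentage points, by -0.175 from counts without length, and by -0.00825 to 0.284 with 1 library left out, always within the spread between libraries. The median log2 fold change of all genes stayed within -0.02 to 0.011. No paired analysis was possible because the labels give no pairing of the libraries. They give no replicate numbers either, and those used here follow the order of the libraries in the series record. Counts limit the members under 1 CPM, such as Myh14, Myocd and Actc1, and sequence found in other genes limits Tpm3, Actg1, Tagln, Vcl, Cnn3 and Myl12a.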

Other observations

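Markers of 3 further cell types were measured and enter no comparison above. The 5 endothelial markers summed to 18.4 to 19.5 CPM in BAP1 KO libraries and 28.8 to 29.7 CPM in WT libraries. The 6 markers of intestinal epithelium, where villin is best known, summed to 3.14 to 3.73 CPM in BAP1 KO and 4.09 to 6.02 CPM in WT. The 4 adipocyte markers summed to 14.9 to 16.7 CPM in BAP1 KO and 7.93 to 8.81 CPM in WT, with Lep at 0 in all libraries.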
